A study of Homo sapiens with 6 samples.

Results

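SINHCAF and 9 genes that lie beside it on the short arm of chromosome 12 were compared between cells labelled as carrying an shRNA against SINHCAF and cells labelled as carrying a control shRNA. The members were fixed by name from genes near SINHCAF, with earlier results of these data known. They are SINHCAF itself, TMTC1, IPO8, CAPRIN2, TSPAN11 and DDX11 on one side, and DENND5B, ETFBKMT, AMN1 and BICD1 on the other. The measured genes H3-5 and RESF1, which lie between AMN1 and BICD1, are not members. A probe set, a group of short array probes that together measure a transcript, counted for a member when the platform annotation gave it that gene symbol and no other. This rule found all 10 members, measured by 31 probe sets, among 18132 genes in all.

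The cells are labelled TPC-1, a human line of papillary thyroid carcinoma, and received a lentivirus with a control shRNA (titled shControl, 3 arrays) or with one against FAM60A (titled shFAM60A, 3 arrays). FAM60A is the older symbol of SINHCAF, and the genotype label of the second group reads FAM60A1 knockdown. Nothing in the sources used here gives the hairpin sequences, the promoter that drives them or the number of hairpins or clones. The 3 samples of a group are described as independent, with no word on separate cultures, so each p-value measures the spread between these samples, which may be technical.

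SINHCAF is a subunit of the SIN3-HDAC complex, in which the scaffold proteins SIN3A and SIN3B hold histone deacetylases that remove acetyl groups from histones at promoters and so hold transcription back. An shRNA is processed into a small RNA that directs cleavage of transcripts that match it, so a knockdown is read first in the transcript that it targets. Genes beside each other can also shift together, as when a stretch of chromosome is gained or lost or when a domain of chromatin opens or closes, and a set of neighbours shows whether a shift is limited to one gene.

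SINHCAF and its next gene, DENND5B, are both transcribed from the minus strand and moved in opposite directions, and BICD1 is the other member that rose. The 250 bases before the RefSeq start (build GRCh38.p14) farthest upstream are therefore shown for these 3 genes, 5′ to 3′ on the strand of the gene. Capitals mark each match to GGGCGG, the core of a GC box, in either orientation. The windows lie at chr12:31326151-31326400 (minus strand) for SINHCAF, chr12:31591137-31591386 (minus strand) for DENND5B and chr12:32106597-32106846 (plus strand) for BICD1.
SINHCAF: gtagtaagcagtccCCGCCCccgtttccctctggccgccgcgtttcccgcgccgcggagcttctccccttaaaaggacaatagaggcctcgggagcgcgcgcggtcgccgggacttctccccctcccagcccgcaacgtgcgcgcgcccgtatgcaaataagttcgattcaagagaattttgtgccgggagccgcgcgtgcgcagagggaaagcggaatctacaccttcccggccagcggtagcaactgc
DENND5B: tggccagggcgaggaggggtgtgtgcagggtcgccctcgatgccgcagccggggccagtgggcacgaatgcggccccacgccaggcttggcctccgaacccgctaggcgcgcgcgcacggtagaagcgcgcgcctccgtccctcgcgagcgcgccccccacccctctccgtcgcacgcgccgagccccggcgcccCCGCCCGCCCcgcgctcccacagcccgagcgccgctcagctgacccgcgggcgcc
BICD1: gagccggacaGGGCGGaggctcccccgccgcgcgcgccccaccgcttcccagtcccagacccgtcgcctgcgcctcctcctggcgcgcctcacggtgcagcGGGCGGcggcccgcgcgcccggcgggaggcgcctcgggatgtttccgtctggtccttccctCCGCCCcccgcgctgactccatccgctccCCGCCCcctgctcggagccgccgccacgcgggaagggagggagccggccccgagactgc

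The window of SINHCAF held 1 match to GGGCGG, that of DENND5B 2 overlapping matches and that of BICD1 4, and their GC content was 64.8%, 79.6% and 79.6%. RefSeq gave 15 start sites for 9 of the 10 members, some of them overlapping, and CAPRIN2 had no entry. Of these 15 windows 11 held GGGCGG, against 42.5% of 34943 windows of the same length over all genes. On both strands, the E-box CACGTG was in 0 of the 15 (6.32% of all windows), the core TGACGT of a cAMP response element in 1, a start of AMN1 (7.09%), CCAAT in 1, a start of TMTC1 (32.0%), the ETS core CGGAAG in 5 (16.4%) and TATAAA in 2, both of AMN1 (10.8%). A match describes letters and shows no binding.

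The array values were log2 expression values, deposited with each probe set set to a median of 0 over the 6 arrays. They therefore give differences between arrays and, at most, a coarse class of level. That class was read from the rounding of the stored numbers, whose step doubles at log2 levels of 2, 4, 8 and 16, and it places 5 of the 31 probe sets at 8 to 16, 17 at 4 to 8 and 9 at 2 to 4, the dimmest class. Differences are shFAM60A minus shControl. A gene was called higher or lower at an adjusted p under 0.05 in limma, a linear model that shares information on the spread across genes, with Benjamini-Hochberg adjustment over all 18132 genes. By that rule 44.9% of all genes were called, 19.8% higher and 25.0% lower, and the values of the groups did not overlap in 53.2%, so a call is common in these arrays. The excess of lower calls depended on the scaling, with 4062 genes higher and 4048 lower after cyclic loess in place of 3595 and 4541.

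The transcript that the shRNA names was higher, not lower, in the arrays labelled shFAM60A. SINHCAF (Entrez gene 58516) stood at -0.58, -0.66 and -0.68 in the 3 arrays labelled shControl and at 0.63, 0.57 and 0.60 in those labelled shFAM60A, as log2 values relative to the median. The gap between the groups was many times the spread within either of them. The log2 difference was 1.24 (SE 0.038, 95% confidence interval 1.15 to 1.33), a 2.36-fold higher signal (limma, adjusted p = 1.08e-06, n = 3 per group). Permuting the 6 arrays exactly (two-sided) gave p = 0.1, below which 3 against 3 arrays cannot go. SINHCAF ranked 111 from the top by difference among all genes and 8 from the top among the 932 measured protein-coding genes of chromosome 12.

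All 3 probe sets of SINHCAF shared this rise. The probe set 11716746_a_at, at a level of 8 to 16, had -0.60, -0.73 and -0.77 in the arrays labelled shControl and 0.62, 0.60 and 0.60 in the arrays labelled shFAM60A. The other two, 11716745_s_at and 11746081_x_at, both lay at 4 to 8. Their log2 differences were 1.24 (SE 0.043) and 1.17 (SE 0.053), against 1.31 (SE 0.052) for the first. The suffixes s_at and x_at mark probes that can bind other transcripts, and the probe set 11716746_a_at, which lacks both, gave the largest value of the 3. Since the targeted gene runs against the labels, no direction below follows from a measured loss of SINHCAF. Every direction and rank is given as the arrays are labelled. Were the labels of the groups exchanged, each difference would keep its size and change its sign, and ranks from the top would be ranks from the bottom. Whether they were was not tested.

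**Figure D1:**
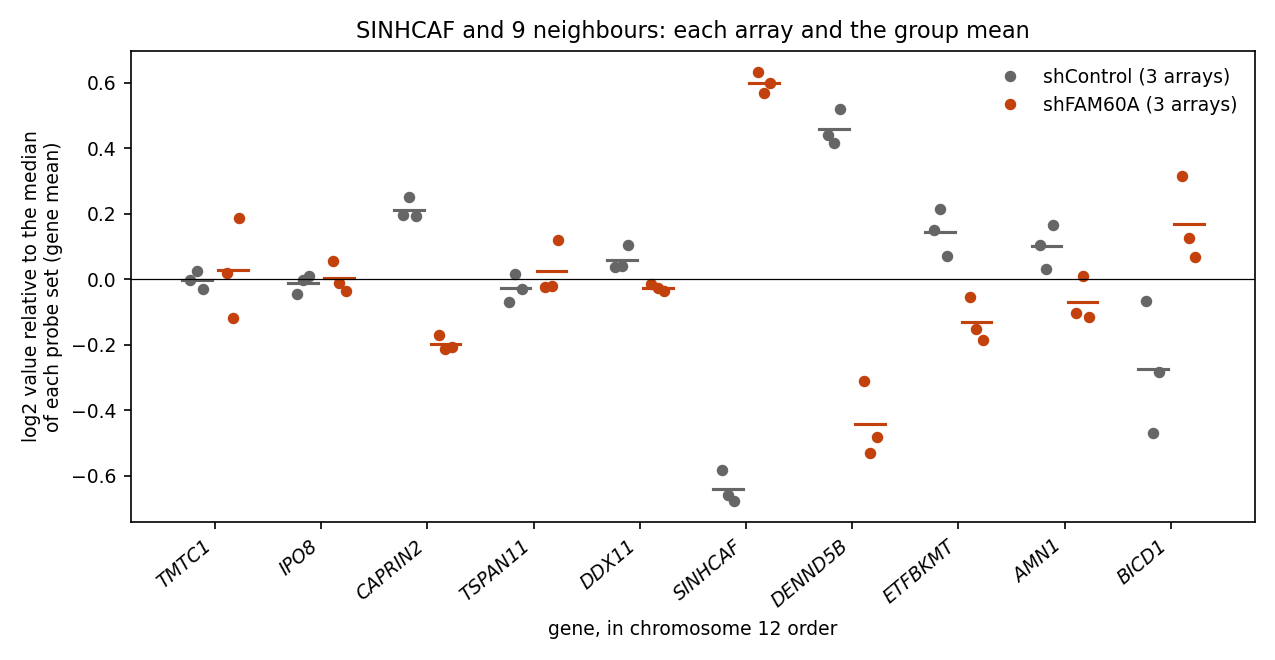
Log2 value relative to the median (y axis; mean of a gene's probe sets) of each array for the 10 genes in chromosome order (x axis), grey for shControl and orange for shFAM60A, 3 arrays each; short lines are group means. SINHCAF lies at -0.68 to -0.58 in shControl and 0.57 to 0.63 in shFAM60A, while DENND5B next to it runs the other way.

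Of the 9 listed neighbours only BICD1 also rose. In all, 4 were called lower, 1 higher and 4 did not pass, so that with SINHCAF 6 of the 10 members were called, 2 higher and 4 lower, beside 44.9% of all genes. The median log2 difference was -0.085 over the 9 neighbours and -0.035 over the 10 members, against -0.012 over all genes tested. The values of the groups did not overlap in 6 of the 9 neighbours, beside 53.2% of all genes. These shares describe the members and were not tested against other genes.

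DENND5B, the next gene on one side, fell most. It belongs to a family of proteins with a DENN domain that activate RAB GTPases, the switches of vesicle traffic. DENND5B (Entrez gene 160518) had 0.44, 0.42 and 0.52 in the arrays labelled shControl and -0.31, -0.53 and -0.48 in the arrays labelled shFAM60A. Every array labelled shControl lay above every array labelled shFAM60A. Its log2 difference was -0.90 (SE 0.062, 95% confidence interval -1.05 to -0.75), a 1.87-fold lower signal (limma, adjusted p = 2.57e-05, n = 3 per group). DENND5B ranked 92 from the bottom among all genes and 7 from the bottom on chromosome 12.

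The probe sets of DENND5B agreed in sign and not in size. The one at a level of 4 to 8, 11725602_at, had 0.88, 0.67 and 1.12 in shControl and -0.72, -0.90 and -0.67 in shFAM60A, a log2 difference of -1.65 (95% confidence interval -1.93 to -1.37) and a 3.14-fold lower signal. The other 2 lay in the lowest class of 2 to 4. Of these, 11744667_a_at had a log2 difference of -0.89 (-1.20 to -0.57) and 11759979_at one of -0.16 (-0.39 to 0.068), which did not pass (adjusted p = 0.24). The intervals of the first and the second did not overlap. The gene mean therefore depends on which probe sets enter it, and without the lowest class the gene is the first probe set alone, at -1.65.

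The genes ETFBKMT and AMN1, which follow DENND5B, were also lower, by less. ETFBKMT encodes a mitochondrial enzyme that methylates the beta subunit of the electron transfer flavoprotein. It (Entrez gene 254013) had 0.15, 0.22 and 0.070 in shControl and -0.054, -0.15 and -0.18 in shFAM60A. The groups did not overlap, although the nearest arrays of each were close. The log2 difference was -0.28 (SE 0.052; limma, adjusted p = 0.0035, n = 3 per group). Of its 5 probe sets 4 fell, from -0.50 to -0.24, and 11759350_at, in the lowest class, had -0.016 and did not pass.

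AMN1, named after a yeast antagonist of the mitotic exit network, had the smallest difference of the members that were called. AMN1 (Entrez gene 196394) had 0.11, 0.032 and 0.17 in shControl and -0.10, 0.010 and -0.11 in shFAM60A. The groups were apart by only the gap between 0.010 and 0.032. The log2 difference was -0.17 (SE 0.050; limma, adjusted p = 0.028, n = 3 per group). Of its 2 probe sets 11723263_a_at fell (-0.22) and 11723262_at did not pass (-0.12). The call was lost with the replicate number as a block (adjusted p = 0.071), after cyclic loess normalization (-0.14, adjusted p = 0.051), and without replicate 1 (-0.17, adjusted p = 0.070) or 3 (-0.14, adjusted p = 0.090) of shControl or replicate 1 (-0.15, adjusted p = 0.086) or 3 (-0.15, adjusted p = 0.089) of shFAM60A.

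On the other side, CAPRIN2 was the gene that fell, and the genes between it and SINHCAF did not pass. CAPRIN2 encodes an RNA-binding protein that also acts in Wnt signalling. It (Entrez gene 65981) had 0.20, 0.25 and 0.19 in shControl and -0.17, -0.21 and -0.21 in shFAM60A. The arrays of each group lay close together and far from those of the other. The log2 difference was -0.41 (SE 0.033, 95% confidence interval -0.49 to -0.33), a 1.33-fold lower signal (limma, adjusted p = 5.15e-05, n = 3 per group). All 3 probe sets fell, by -0.61 for 11755448_s_at at a level of 8 to 16 and by -0.31 for each of the other 2 at 4 to 8.

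BICD1 was the neighbour that rose. BICD1 links cargo such as Golgi-derived vesicles to the dynein motor. It (Entrez gene 636) had -0.068, -0.47 and -0.28 in shControl and 0.32, 0.13 and 0.068 in shFAM60A. The groups did not overlap, but the arrays labelled shControl differed among themselves with an SD of 0.20, the highest of any member in either group. The log2 difference was 0.44 (SE 0.11, 95% confidence interval 0.19 to 0.70; limma, adjusted p = 0.012, n = 3 per group), and it rests on 1 probe set at a level of 4 to 8. Leaving out 1 array at a time gave values from 0.34 to 0.55. Between AMN1 and BICD1 lie H3-5 and RESF1, measured genes that are not members. RESF1, directly beside BICD1, was also higher (0.40, SE 0.029, 2 probe sets, limma, adjusted p = 3.19e-05, n = 3 per group). H3-5 did not pass (-0.0080). FGD4, the measured gene next to BICD1 on the side away from RESF1, was lower (-0.43, SE 0.043, 5 probe sets, limma, adjusted p = 0.00014, n = 3 per group).

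DDX11, the nearest measured protein-coding gene on the side away from DENND5B, did not pass. DDX11 is a DNA helicase that acts in the cohesion of sister chromatids. It (Entrez gene 1663) had 0.037, 0.039 and 0.10 in shControl and -0.015, -0.025 and -0.037 in shFAM60A. Though the groups did not overlap, the log2 difference of -0.085 (95% confidence interval -0.16 to -0.0084) had an adjusted p of 0.072 (limma, n = 3 per group). Its 4 probe sets ran from -0.19 to 0.080, and none passed (limma over probe sets, adjusted p from 0.055 to 0.36). DDX11 has near-identical copies in the genome, so that its probes may read more than one gene, and 4 further probe sets that name DDX11 together with a copy were left out by the rule.

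The other three, TSPAN11, IPO8 and TMTC1, had overlapping groups. TSPAN11, a tetraspanin of the cell membrane, had -0.069, 0.016 and -0.031 in shControl and -0.023, -0.022 and 0.12 in shFAM60A, a log2 difference of 0.053 with a 95% confidence interval of -0.062 to 0.17. IPO8, an importin that carries proteins into the nucleus, had -0.044, -0.0027 and 0.010 in shControl and 0.055, -0.013 and -0.035 in shFAM60A, a log2 difference of 0.015 (-0.072 to 0.10). TMTC1, an enzyme of the endoplasmic reticulum that attaches mannose to proteins, had -0.0026, 0.024 and -0.031 in shControl and 0.018, -0.12 and 0.19 in shFAM60A, a log2 difference of 0.032 (-0.14 to 0.20). A change the size of that of SINHCAF lies far outside each of these intervals. All 3 probe sets of TMTC1 lay in the lowest level class, whereas the 4 of IPO8 lay at 4 to 8.

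**Figure D2:**
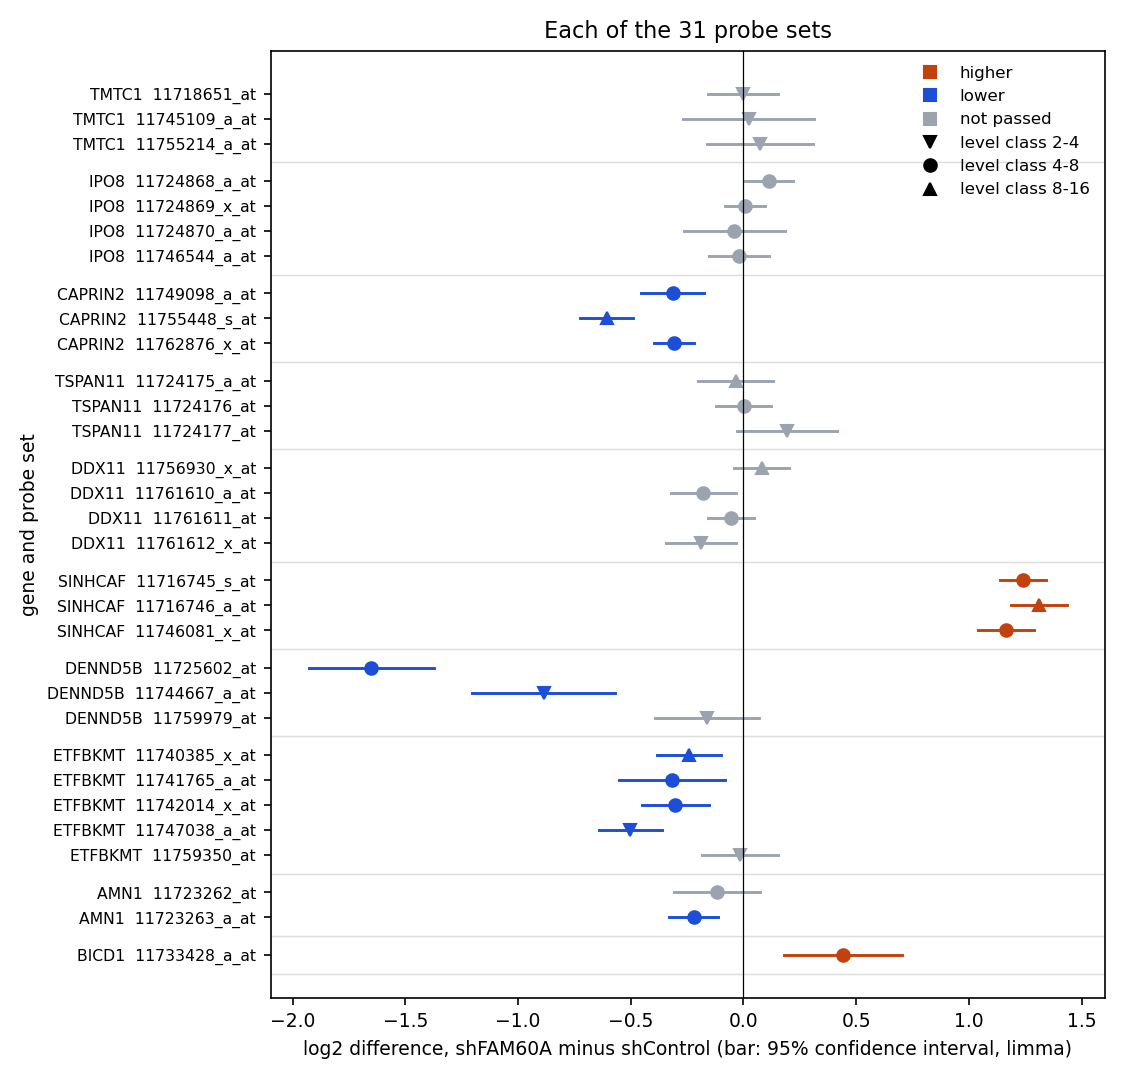
Log2 difference, shFAM60A minus shControl (x axis), with its 95% confidence interval from limma for each of the 31 probe sets (y axis, by gene in chromosome order); orange is called higher, blue lower and grey not passed, and the marker gives the level class. All 3 probe sets of SINHCAF lie between 1.17 and 1.31, and those of DENND5B spread from -1.65 to -0.16.

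Taken by probe set, 4 of the 31 were called higher, 10 lower and 17 did not pass, beside 18.4% called higher and 23.0% lower among all 44988 named probe sets, of which 50.8% had groups that did not overlap. Of the 4 that rose, 3 belonged to SINHCAF and 1 to BICD1. In the lowest level class 2 of 9 were called, both lower, 1 of DENND5B and 1 of ETFBKMT. At 4 to 8 it was 9 of 17, and at 8 to 16 it was 3 of 5. The share called in each class over all probe sets was not counted, so whether this split is particular to the members was not tested.

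Set against each neighbour within the same array, SINHCAF had shifted further up than all 9. The shift of SINHCAF minus that of the neighbour was largest for DENND5B, at 2.14 on the log2 scale (95% confidence interval 1.99 to 2.28). It was 1.65 for CAPRIN2, 1.52 for ETFBKMT, 1.41 for AMN1, 1.32 for DDX11, 1.22 for IPO8, 1.21 for TMTC1 and 1.19 for TSPAN11. It was smallest for BICD1, at 0.80 (0.60 to 0.99). In each of these 9 comparisons the groups did not overlap, as they did not for 99.6% of all genes set against SINHCAF in this way, and an exact two-sided permutation gave p = 0.1, its lowest possible value. In limma, adjusted over all genes, the largest of the 9 adjusted p was 9.52e-06, that of BICD1. All comparisons in that fit hold the same SINHCAF values and are not independent. The intervals may therefore be too narrow and the adjusted p too small. So large is the shift of SINHCAF that the same test placed it above 99.1% of the other 18131 genes.

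**Figure D3:**
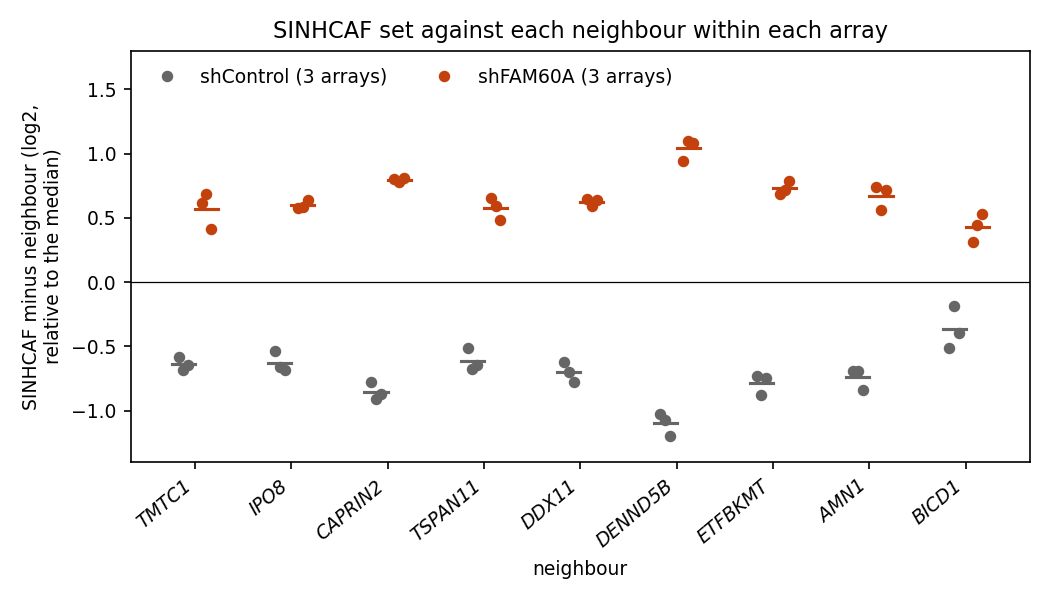
SINHCAF minus each neighbour within each array (y axis, log2 relative to the median) for the 9 neighbours (x axis), grey for shControl and orange for shFAM60A, 3 arrays each, with group means as lines. The groups are apart for every neighbour, by 2.14 for DENND5B and by 0.80 for BICD1.

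A wider window gave the same picture of mixed directions. It took the 20 measured protein-coding genes before and the 20 after SINHCAF in RefSeq order, and on the DENND5B side it runs past the centromere onto the long arm. Of these 40 genes 11 rose, 11 fell and 18 did not pass (55% called, beside 44.9% of all genes), with a median log2 difference of -0.013. Leaving out the 9 neighbours, 10 of 31 rose and 7 fell. Over all 932 measured protein-coding genes of chromosome 12, 202 rose and 222 fell (45.5% called), with a median of -0.0076. SINHCAF had the largest positive difference of the 41 genes.

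Besides SINHCAF, the genes of the window with the largest rise were REP15 (log2 difference 0.86), an effector of RAB15, FAR2 (0.80), which reduces fatty acyl-CoA to alcohols, PKP2 (0.67), a plakophilin of desmosomes, and the Mediator subunit MED21 (0.50). The largest falls were those of ALG10B (-1.09), a glucosyltransferase of N-glycosylation with a near-identical copy, ALG10, DENND5B (-0.90), ERGIC2 (-0.63), which acts between endoplasmic reticulum and Golgi, and KLHL42 (-0.47), an adaptor of a cullin ubiquitin ligase. REP15 and ALG10B rest on 1 probe set each. FAR2 and ERGIC2 are next to each other in this order and moved in opposite directions, as SINHCAF and DENND5B did. RESF1 (0.40) and BICD1 (0.44), also next to each other, both rose. FGD4 (-0.43), next to BICD1 on its other side, fell. Of the 40 adjacent pairs in the window, 14 had both genes called, 9 in the same and 5 in opposite directions. Such pairs were not counted over chromosome 12 or over all genes, so these counts describe the window alone.

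**Figure D4:**
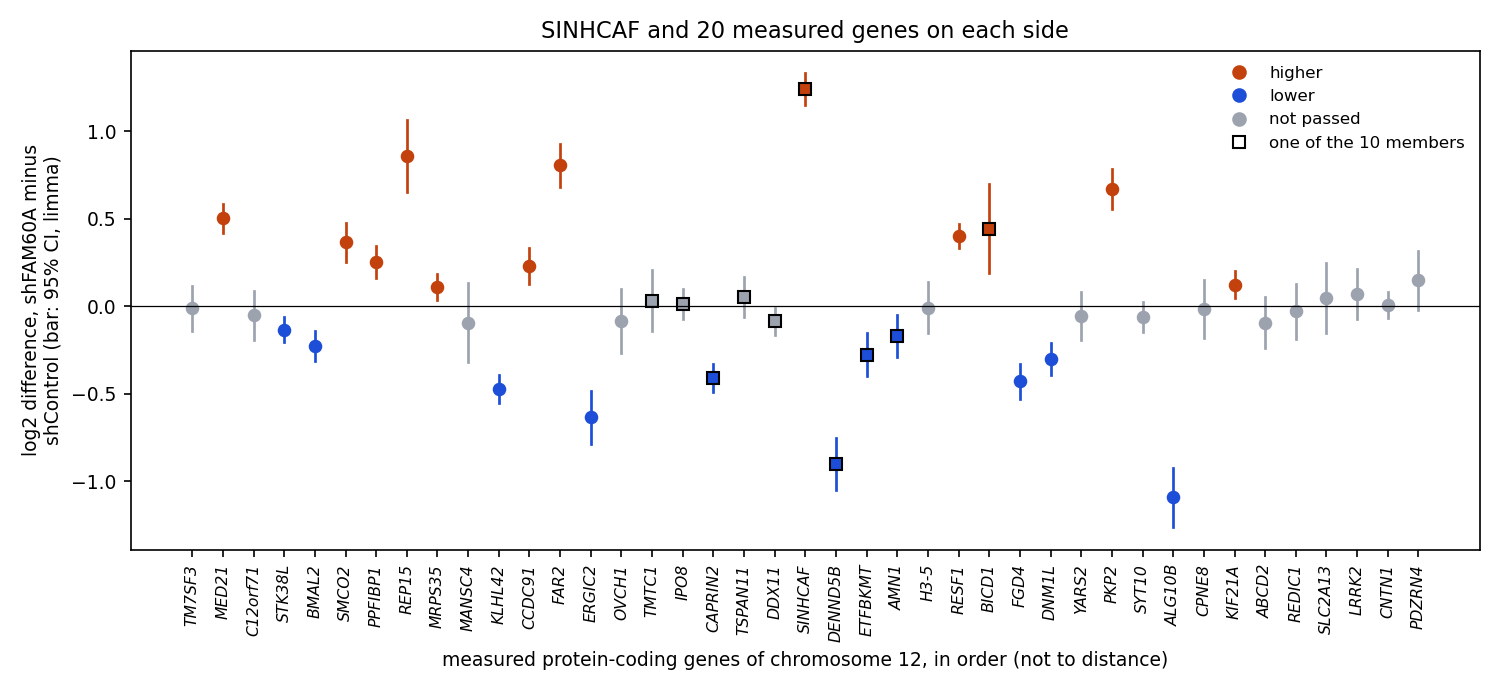
Log2 difference, shFAM60A minus shControl (y axis), with its 95% confidence interval from limma for SINHCAF and the 20 measured protein-coding genes on each side, in chromosome order and not to distance (x axis); squares are the 10 members, orange is called higher, blue lower, grey not passed. SINHCAF stands at 1.24 with DDX11 (-0.085) and DENND5B (-0.90) beside it.

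Among genes listed around the complex that SINHCAF belongs to, not all of them its subunits, changes also ran both ways. Of 26 measured genes of a SIN3-HDAC list, SINHCAF included, 10 rose, 8 fell and 8 did not pass, beside 44.9% of all genes called, and the list median was 0.020. TBL1X (0.68), FOXK1 (0.45) and SAP30L (0.54) rose, and MORF4L1 (-0.59) and SAP30 (-0.58) fell. Of the scaffolds, SIN3A (0.51) rose and SIN3B (-0.45) fell. The deacetylases HDAC1 (-0.091) and HDAC2 (0.066) did not pass.

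The 5 genes whose 6 values lay closest to those of SINHCAF were PHLDA2, GJB2, PMAIP1, PPL and MAD1L1, none of them on the list of neighbours. They were ranked by the root mean square difference from SINHCAF over the 6 arrays, which ran from 0.020 for PHLDA2 to 0.027 for MAD1L1 on the log2 scale. PHLDA2 had -0.59, -0.63 and -0.65 in shControl and 0.65, 0.61 and 0.59 in shFAM60A. GJB2, a connexin of gap junctions, had a log2 difference of 1.21, PMAIP1, a pro-apoptotic member of the BCL2 family, 1.26, PPL, the cell envelope protein periplakin, 1.23, and MAD1L1 of the spindle checkpoint 1.25. These genes were chosen for this likeness, so it is a description.

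In bulk RNA, fewer cells of a type and less RNA per cell cannot be told apart. The RNA extraction protocol names DLD1, a colorectal line, where all other labels name TPC-1. The counts of markers stand beside 19.8% of all genes called higher and 25.0% called lower. Of 9 thyroid markers measured, 0 rose and 1, HHEX (-0.97), fell, and 8 had no probe set at a level of 8 or more. All probe sets of TSHR and DUOX2 lay in the lowest class. Summed over the 9 thyroid markers, the centred log2 values ran from 0.47 to 0.64 in shControl and from -0.84 to -0.42 in shFAM60A. HHEX alone had 0.42 to 0.43 in shControl and -0.75 to -0.42 in shFAM60A. Of 10 intestinal markers 5 rose, among them CDX2 (1.0), KRT20 (1.20) and CDH17 (0.82), and 0 fell, and these 3 had a probe set at 8 or more while the other 7 had none. The other rises, LGALS4 (0.16) and MUC2 (0.18), rest on 1 probe set each, in the lowest level class. The sum over the 10 ran from -2.22 to -1.63 in shControl and from 1.77 to 1.84 in shFAM60A. Of 6 leukocyte markers 2 rose, CD68 (0.26) and CD79A (0.14), with sums from -0.34 to -0.039 and from 0.026 to 0.72. No endothelial (0 of 5) or fibroblast marker (0 of 6) passed, with lowest unadjusted p-values of 0.082 and 0.22 in limma, so none was under 0.05. The part of these shifts in the differences of SINHCAF and its neighbours was not tested. The 3′ minus 5′ signal of ACTB, a measure of RNA integrity, overlapped between the groups, with centred values from -0.010 to 0.053 in shControl and from -0.023 to -0.0056 in shFAM60A, as did that of GAPDH.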

How the data were processed

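Total RNA of 6 samples was labelled with biotin and hybridised to Affymetrix arrays, 1 per sample. Per the submitters' processing notes, the authors used RMA, which corrects background, quantile normalizes and combines the probes of a probe set, to make the deposited log2 expression values. The sources used here name neither its program nor its version. The median of each of the 49395 probe sets over the 6 arrays was 0 to within 5e-07, so the deposited values had also been centred, which keeps differences and removes levels. The log base was taken as 2. Array medians lay between -0.015 and 0.010. The number of arrays limits the precision.

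Symbols came from the platform annotation: 44988 probe sets had 1 symbol, 1832 several and 2473 none, and 102 controls were left out. Checking Entrez identifiers against RefSeq GRCh38.p14 changed 0 symbols. A gene was the mean of its probe sets. Groups followed the titles. Both fits, over genes and over probe sets, used limma 3.58.1 (lmFit, eBayes; R 4.3.3) with Benjamini-Hochberg adjustment at 0.05; the fit over genes was tested on simulated data. Chromosome order came from RefSeq and was used for order only. In a test on simulated data with levels away from the class borders, the level class was recovered for 96.6% to 97.2% of probe sets. Levels near a border and the class of 16 and over were not simulated. In the data that class held 1162 of the 44988 probe sets. The class was the coarsest rounding step that fitted a probe set, so an accidental fit places it too high. Some probe sets in the class of 16 and over, and in other classes, may be placed too high in this way. Named genes were the 10 members and the 5 nearest SINHCAF in pattern. Among the 40 flanking genes they were the 4 largest rises and falls past the threshold. Up to 6 SIN3-HDAC genes and up to 3 of each marker list with the smallest p were also named. HDAC1, HDAC2, SIN3A, SIN3B, TSHR, DUOX2, LGALS4, MUC2, RESF1, H3-5 and FGD4 were named after their values were seen. The members, lists and rules were chosen with earlier results of these data known. Alternatives were other normalizations, probe set rules, filters, a robust fit, a replicate block and leaving out each array.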

Additional observations from a re-analysis of the deposited data

Results flagged for a closer look

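A probe set outside the rule, 11723322_s_at, which names DDX11 together with the copies DDX12P and LOC642846, was higher in the arrays labelled shFAM60A. Its log2 values relative to the median were -0.029, -0.16 and -0.11 in shControl and 0.067, 0.029 and 0.030 in shFAM60A, a log2 difference of 0.14 (SE 0.046; limma over 49293 probe sets, adjusted p = 0.048). Of the other 3 probe sets shared between DDX11 and its copies, 11747069_s_at was lower (-0.15, adjusted p = 0.042), and 11727648_s_at (-0.023) and 11753113_s_at (0.0087) did not pass. Which gene each of them reads was not tested. No group had the 4 or more arrays that a search for outlying samples needs.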

How the results depend on the processing

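SINHCAF stayed higher in all 15 alternatives (1.12 to 1.31), as did BICD1 (0.34 to 0.55), and DENND5B (-1.65 to -0.85), CAPRIN2 (-0.61 to -0.31) and ETFBKMT (-0.50 to -0.24) stayed lower, each past the threshold. BICD1 has 1 probe set, so its difference could not change under the other probe set rules or filters. For every gene, the robust fit and the replicate block leave the difference as it is and can change only its p-value. AMN1 lost its call in 6 of 15. DDX11 stayed negative (-0.19 to -0.051) and did not pass in any. Signs turned only among genes that did not pass: TMTC1 without replicate 3 of shFAM60A (-0.047, with 0.11 as the highest value with 1 array left out), IPO8 with the probe set of largest variance (-0.042), without replicate 1 of shControl (-0.0014) and without replicate 1 of shFAM60A (-0.012), with 0.033 as the highest with 1 array left out, and TSPAN11 without the lowest level class (-0.017), a filter that left TMTC1 with no value. With all level classes and 1 array left out, TSPAN11 lay between 0.0058 (without replicate 3 of shFAM60A) and 0.077. All 9 shifts of SINHCAF against a neighbour kept sign and call. Subtracting the array median could not change them, as it cancels within each array. The median difference of all genes lay between -0.019 and 0.014. Deviations of arrays with the same replicate number correlated at 0.16, 0.059 and 0.078, too little to pair them by number, though each array correlated best with its own number. With the replicate block 8170 genes were called in place of 8136, and 2 members were higher and 3 lower, AMN1 being lost at an adjusted p of 0.071. With 3 arrays a group, small differences such as that of AMN1 are at the limit of detection.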
